A study of Mus musculus with 6 samples.

Results

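Dusp6, Egr1 and Fos are 3 genes whose transcription is commonly read as the output of ERK signalling, and their start sites were followed here in Ba/F3 cells that carry mutant FLT3. The members were found by position alone: all plus-strand peaks inside a window of mouse build mm9 around each gene. The windows were chromosome 10 from 98720000 to 98735000 for Dusp6, chromosome 18 from 35018000 to 35026000 for Egr1 and chromosome 12 from 86812000 to 86820000 for Fos. They held 7, 15 and 8 peaks, which makes 30 of the 158966 peaks of the series. The deposited tables name peaks by position only, so that each gene name rests on its window.

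The libraries were made by cap analysis of gene expression (CAGE), a method that reads RNA from its cap, so that a cluster of tags (a peak) marks a promoter and each RNA is counted once whatever its length. Ba/F3 is a mouse pro-B cell line that depends on interleukin-3 until an active kinase is introduced. All 6 libraries came from Ba/F3 cells that carry FLT3-ITD, the FLT3 receptor tyrosine kinase with an internal tandem duplication, grown in RPMI-1640 with heat-inactivated serum and antibiotics. In 3 libraries FLT3-ITD was the mutation named in the titles (FLT3-ITD cells), and in the other 3 it was joined by D835Y, a substitution in the activation loop of the kinase (the double mutant). The second label of the double-mutant libraries gives a different residue number in each, so the titles set the groups. The labels used here name no promoter for the FLT3 constructs and do not say whether each line was a clone, nor whether replicates were separate cultures, so that p-values measure the spread between these libraries, which may be technical. Markers of pro-B cells could not be looked up among peaks without gene names.

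ERK is the last kinase of the RAS-RAF-MEK-ERK cascade that receptor tyrosine kinases such as FLT3 switch on. Active ERK phosphorylates transcription factors of the ternary complex and ETS families, and these drive immediate early genes such as Egr1 and Fos within minutes, without new protein synthesis. Dusp6 encodes a cytoplasmic phosphatase that removes the activating phosphates from ERK itself, so it is both a target of the pathway and its feedback inhibitor. FLT3-ITD is best known for its strong signal to STAT5, beside RAS-ERK and PI3K.

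Sequences from the RefSeq promoter table (build GRCm38.p6) were taken for 2 of the 3 genes, Dusp6 and Fos. None was taken for Egr1. The 250 bases before each annotated start are shown for these 2 genes, whose levels changed in opposite directions. They lie on the plus strand at chr10:99262981-99263230 and chr12:85473640-85473889 of GRCm38.p6, a build other than that of the peaks, so distances between promoter and peak coordinates were not taken. Capitals mark matches to the motifs searched.
Dusp6: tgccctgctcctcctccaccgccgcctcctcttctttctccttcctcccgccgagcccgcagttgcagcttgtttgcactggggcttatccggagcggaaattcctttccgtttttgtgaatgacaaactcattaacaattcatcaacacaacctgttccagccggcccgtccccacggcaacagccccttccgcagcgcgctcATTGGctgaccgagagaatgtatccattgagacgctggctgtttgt
Fos: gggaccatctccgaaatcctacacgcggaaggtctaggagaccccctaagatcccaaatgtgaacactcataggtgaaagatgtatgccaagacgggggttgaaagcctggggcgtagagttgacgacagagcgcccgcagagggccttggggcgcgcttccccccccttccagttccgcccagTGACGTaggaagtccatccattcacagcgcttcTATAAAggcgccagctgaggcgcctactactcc

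Both strands of each sequence were searched for the TATA box (TATAAA) and the core of the cyclic AMP response element (TGACGT). The search also took in the full element (TGACGTCA, which contains that core), the AP-1 site (TGAGTCA) and the CCAAT box (CCAAT). A long form of the ETS site (CCGGAA) and the CArG box of serum response factor completed the list. The Fos promoter held TATAAA starting 33 bases before the start, and TGACGT starting 66 bases before it. Of 32851 RefSeq promoters cut to the same 250 bases, 12.4% hold TATAAA and 6.47% hold TGACGT on either strand. The Dusp6 promoter held a CCAAT box on the minus strand, 46 bases before the start, as 33.8% of promoters do. The full cyclic AMP element (1.55% of promoters), the AP-1 site (4.46%), CCGGAA (12.0%) and the CArG box (1.47%) had no match in either 250-base window. Bases farther from the start were not searched, so this does not mean that either gene lacks a CArG box. The shorter GGAA within CCGGAA is present in both sequences and was not searched for, so the lack of CCGGAA does not mean that ETS sites are absent.

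Tag totals lay between 5884258 and 13977941 per library, which makes 1 tag worth 0.0715 to 0.170 CPM (the share of the library's peak tags, scaled to 1000000). A count of 0 was taken to allow up to 3 tags, or 0.215 to 0.510 CPM. The exact 95% Poisson intervals given below for Egr1 are two-sided and somewhat wider. For a count of 0 in double-mutant replicate 1 such an interval reaches 0.310 CPM, against 0.252 CPM for 3 tags. Of the 30 member peaks, 17 had 0 tags in every library, 8 had tags but stayed under the minimum of 1 CPM in at least 3 libraries, and 5 were tested. These 5 were 4 Dusp6 sites and 1 Fos site. Of the 5, 3 changed between the groups: 2 Dusp6 sites fell and the Fos site rose in double-mutant cells (limma over 19162 promoters, threshold of 0.05 on the adjusted p). Of all promoters tested, 24.4% changed, 10.4% lower and 14.1% higher in the double mutant. Each of the 5 sites reached 1 CPM in libraries of both groups, and the 3 that changed did so in all 6 libraries.

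**Figure D1:**
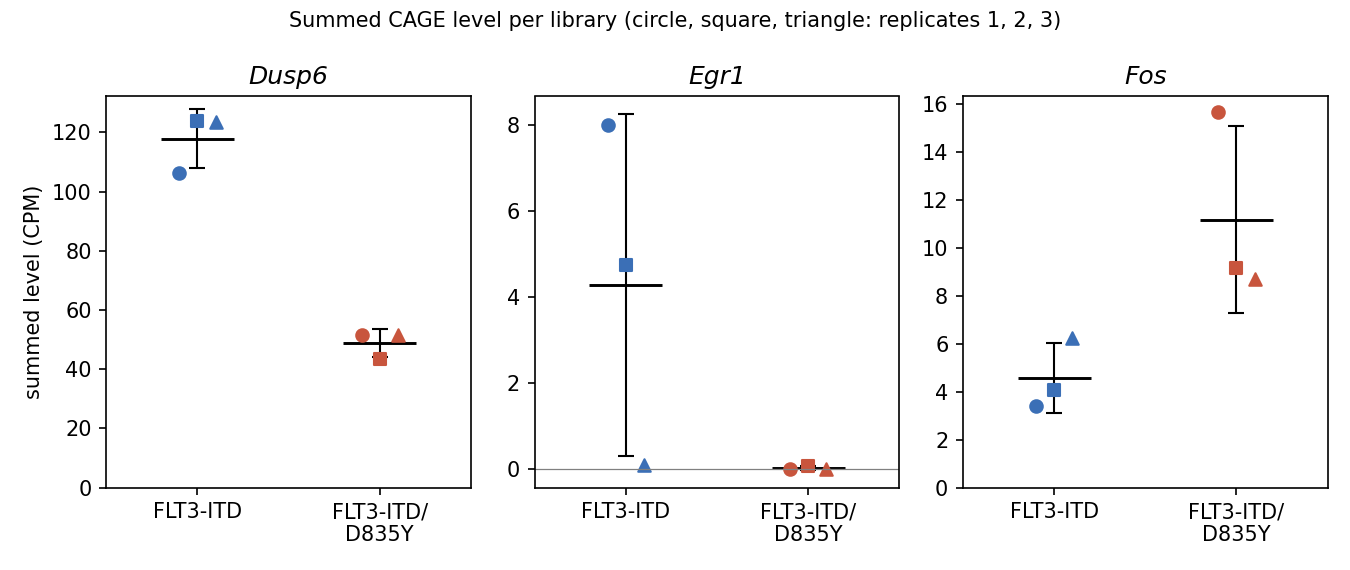
Summed CAGE level of each gene in CPM (vertical axis, from 0 for Dusp6 and Fos, with a line at 0 for Egr1), by group, with 1 symbol per library (circle, square and triangle for replicates 1, 2 and 3), the mean as a bar and the SD as whiskers. Dusp6 is lower and Fos higher in all 3 double-mutant libraries, and the Egr1 mean of FLT3-ITD cells rests on replicates 1 and 2.

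Dusp6 was the most active of the 3 genes in every library, and it fell in the double mutant. Its summed level was 106.4, 123.9 and 123.5 CPM in FLT3-ITD replicates 1, 2 and 3. In the double mutant it was 51.6, 43.6 and 51.4 CPM. The groups were far apart, since the lowest FLT3-ITD library was above all double-mutant libraries by more than the spread within either group. The means were 117.9 ± 10.0 and 48.9 ± 4.6 CPM (SD, n = 3 each), so the double mutant was 58.6% lower. All log2 differences are those of log2(CPM + 1), with FLT3-ITD subtracted from the double mutant, and that of Dusp6 was -1.25 (SE 0.12, limma adjusted p = 8.6e-06 over 19159 features, of which 24.4% changed). A fall as large or larger was seen at 1.36% of these features. The summed level of Dusp6 in FLT3-ITD cells was above that of 94.1% of tested promoters, and in the double mutant above 85.5%. These promoters were single peaks, so a sum ranks higher among them than its own single sites would. An exact permutation test over the 6 libraries gave p = 0.1, the smallest it can give for 3 against 3 (two-sided), for this sum and for each of the other 2.

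The Dusp6 signal came mainly from a pair of close start sites. The leading site, at chr10:98725858-98725874, had 81.7, 98.4 and 95.5 CPM in FLT3-ITD cells. It had 35.6, 30.3 and 38.2 CPM in the double mutant. No double-mutant library reached the level of an FLT3-ITD library, and the log2 difference was -1.38 (SE 0.12, limma adjusted p = 6.4e-06). The neighbouring site, at chr10:98725928-98725948, is centred 72 bp downstream. In FLT3-ITD cells it had 18.5, 19.2 and 22.0 CPM, against 10.1, 9.16 and 9.29 CPM in double-mutant libraries, a log2 difference of -0.99 (SE 0.13, limma adjusted p = 0.00021). Here too the groups did not overlap, as was the case at 41.8% of all tested promoters.

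Another 2 Dusp6 sites lay upstream and were far weaker. The one at chr10:98724185-98724251, a broad peak of 66 bp centred 1648 bp before the leading site, had 5.27, 4.59 and 4.74 CPM in FLT3-ITD cells. In the double mutant it had 4.53, 3.43 and 3.16 CPM. All double-mutant values were below all FLT3-ITD values, but the nearest of them (4.53 and 4.59 CPM) were almost equal, and the difference of -0.33 did not pass (SE 0.18, limma adjusted p = 0.20). The site at chr10:98724503-98724525 had 0.78, 1.53 and 1.05 CPM against 1.43, 0.72 and 0.69 CPM. These ranges overlapped (log2 difference -0.13, SE 0.21, limma adjusted p = 0.70).

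**Figure D2:**
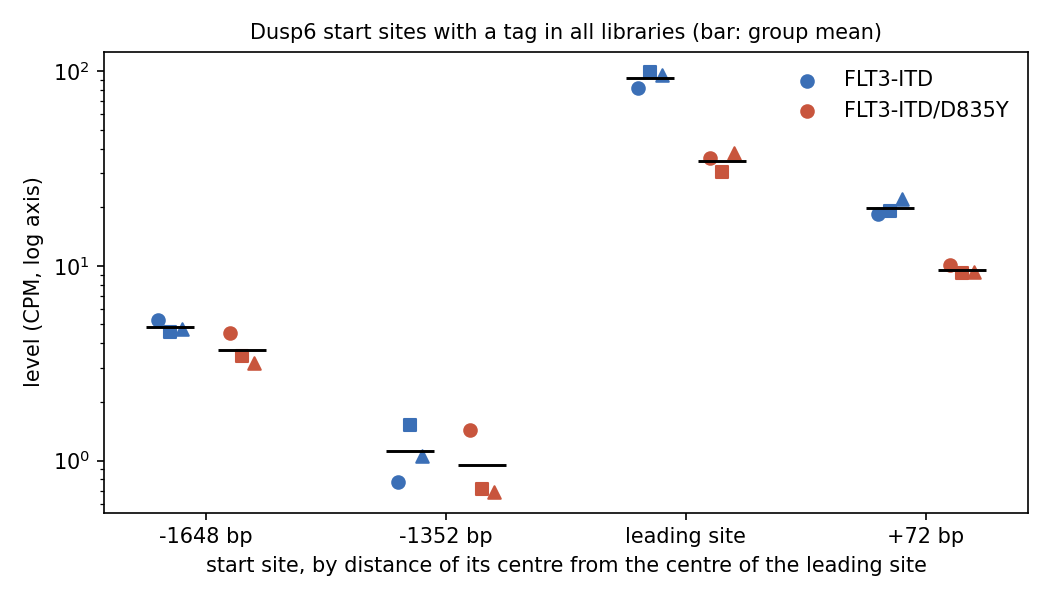
Level of the 4 Dusp6 start sites with a tag in all 6 libraries (CPM, log axis), placed by the distance of their centres from the leading site, with 1 symbol per library (circle, square, triangle for replicates 1, 2, 3) and a bar at each group mean. The leading site and the site 72 bp downstream are lower in the double mutant, while the groups lie close together or overlap at the upstream sites.

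Relative to the leading site, the other tested Dusp6 sites stood higher in all double-mutant libraries than in all FLT3-ITD libraries. The leading site held 76.8, 79.4 and 77.3% of the summed Dusp6 level in FLT3-ITD cells and 68.9, 69.5 and 74.2% in the double mutant. The groups did not overlap, and the difference of the means was -6.98 percentage points (exact permutation p = 0.1, adjusted 0.1 over 2 genes, the smallest possible). The share of the broad upstream site was 4.16% ± 0.68 in FLT3-ITD cells and 7.61% ± 1.33 in the double mutant (SD, n = 3 each). On the log2(CPM + 1) scale its level against the leading site was higher in the double mutant by 1.06, that of the weaker upstream site by 1.25 and that of the downstream site by 0.39. In each case all 3 double-mutant libraries were above all 3 FLT3-ITD libraries (exact permutation p = 0.1 each, adjusted 0.1 over 3 sites). For the weaker upstream site the pseudocount of 1 makes the change of the ratio follow that of the leading site.

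Transcription from the opposite strand was low in the Dusp6 window. The minus-strand site at chr10:98725680-98725719, which lies before the leading site with a gap of 139 bp, had 1.07, 0.85 and 0.61 CPM in the FLT3-ITD libraries, against 1.09, 0.50 and 0.99 CPM with D835Y. The ranges overlapped, and the site did not reach the minimum for testing. The other minus-strand site with tags, at chr10:98724343-98724360, stayed between 0.088 and 0.43 CPM. Downstream of the leading pair, 2 plus-strand sites had at most 0.170 CPM in any library, and the seventh member had 0 tags throughout.

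Fos, which encodes a leucine zipper protein of the AP-1 transcription factor, went the other way from Dusp6. Its summed level was 3.41, 4.08 and 6.23 CPM in FLT3-ITD cells. In the double mutant it was 15.7, 9.16 and 8.70 CPM. The double-mutant libraries were all above the FLT3-ITD libraries, though replicate 1 stood above the other double-mutant libraries and replicate 3 above the other FLT3-ITD libraries. The means were 4.57 ± 1.47 and 11.2 ± 3.9 CPM (SD, n = 3 each), 2.45 times as high in the double mutant. The log2 difference was 1.11 (SE 0.24, limma adjusted p = 0.0056 over 19159 features), and 2.54% of features rose as much or more. The summed level was moderate: above that of 45.3% of tested single promoters in FLT3-ITD cells and 62.4% in the double mutant.

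Nearly all Fos tags came from 1 sharp start site. The site at chr12:86814833-86814846, 13 bp wide, held 122 of the 130 Fos tags of the FLT3-ITD libraries and 396 of the 403 of the double-mutant libraries. With FLT3-ITD alone it had 3.12, 3.57 and 6.05 CPM, and with D835Y added it had 15.3, 9.01 and 8.70 CPM, so that the groups did not overlap (log2 difference 1.19, SE 0.25, limma adjusted p = 0.0049). The other 4 Fos sites with tags never exceeded 0.340 CPM, and 3 had 0 tags in every library. The share of the leading site was 91.4, 87.5 and 97.2% in FLT3-ITD cells and 97.3, 98.4 and 100% in the double mutant (exact permutation p = 0.1, adjusted 0.1). The sites outside the leading one had 15 tags in all, over the 6 libraries, and no minus-strand peak of the Fos window had a tag.

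Egr1, which encodes a zinc finger transcription factor, was present in 2 FLT3-ITD libraries and close to silent in the other 4 libraries. Its summed level was 8.0 and 4.76 CPM in FLT3-ITD replicates 1 and 2, from 82 and 28 tags, but 0.088 CPM in replicate 3, from 1 tag. In the double mutant it was 0, 0.072 and 0 CPM, which is 1 tag in 3 libraries. FLT3-ITD replicate 3 and double-mutant replicate 2 thus had a single tag each, and their CPM differed only by their depth. The exact 95% Poisson interval of the FLT3-ITD libraries was 6.36 to 9.92 CPM in replicate 1 and 3.16 to 6.88 CPM in replicate 2, against 0.0022 to 0.489 CPM in replicate 3. Replicate 3 lay below replicates 1 and 2 beyond counting error, in a library with more tags than either of them (11397865).

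The Egr1 mean of FLT3-ITD cells was 4.28 ± 3.98 CPM and that of the double mutant 0.024 ± 0.041 CPM (SD, n = 3 each), so the SD of FLT3-ITD cells nearly equalled their mean. Pooled over libraries the ratio was 145 (111 tags against 1), with an exact 95% interval of 25.5 to 5784 that covers counting error only. It was 245 (43.1 to 9780) for FLT3-ITD replicates 1 and 2 alone over the double mutant, and 3.16 (0.040 to 248) for replicate 3 alone, from 1 tag against 1. With 1 CPM reached in 2 libraries, Egr1 fell under the minimum for testing and has no limma value beside Dusp6 and Fos. The difference of log2(CPM + 1) means was -1.91. Without any minimum, limma gave an adjusted p of 0.38 (SE 0.93) and edgeR's quasi-likelihood test 0.24, while DESeq2 gave 0.0097. Of the features tested in this way, 9.57% changed by limma, 10.3% by edgeR and 12.3% by DESeq2. A difference between the groups in Egr1 was therefore not established over the spread of the FLT3-ITD libraries. Of the 15 Egr1 peaks, the site at chr18:35020854-35020869 carried 109 of the 111 FLT3-ITD tags, and 13 peaks had 0 tags in every library.

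**Figure D3:**
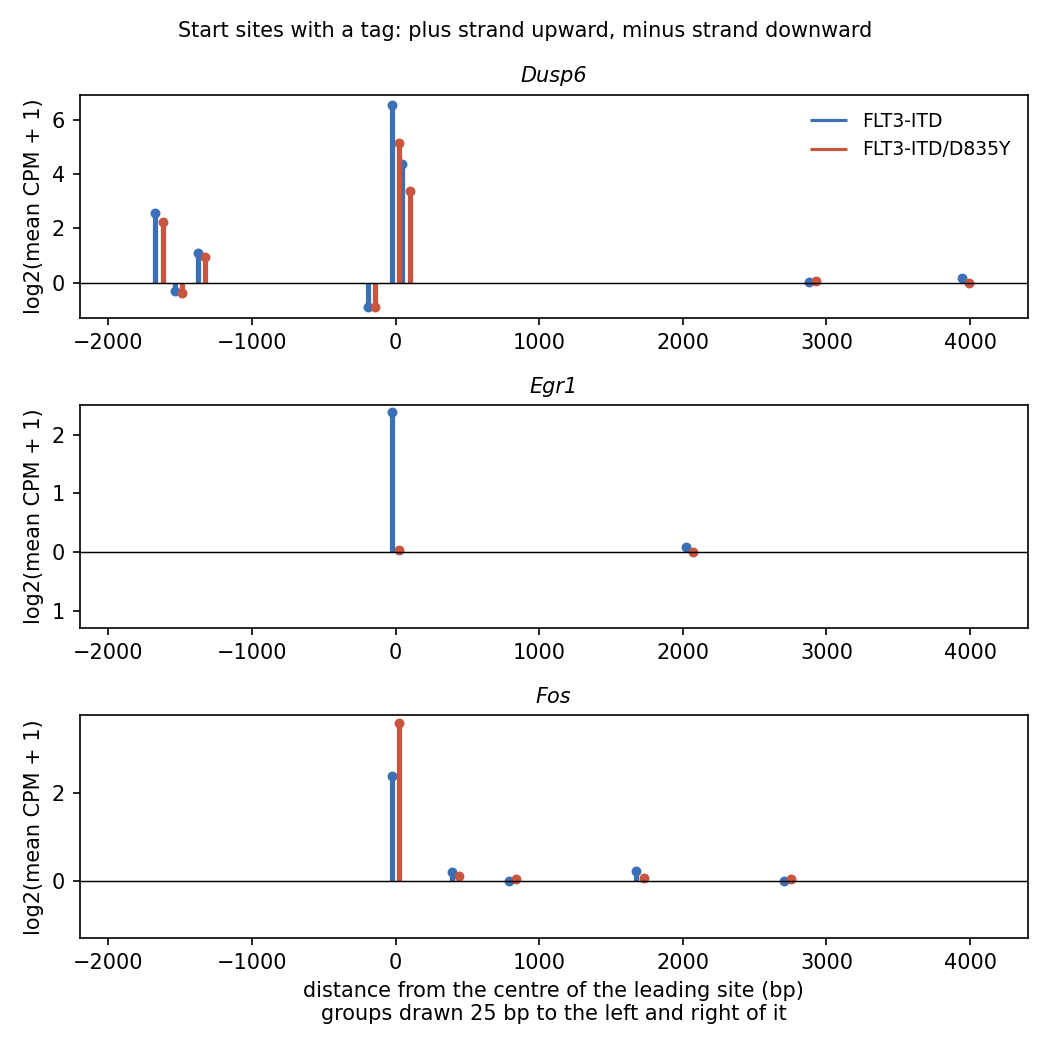
Start sites with at least 1 tag in the windows of Dusp6, Egr1 and Fos, as log2(mean CPM + 1) against distance in bp from the centre of the leading site, with plus-strand sites drawn upward, minus-strand sites downward, and the 2 groups drawn 25 bp to the left and right of the position. Dusp6 is read from an upstream pair and a leading pair of sites, while Fos and Egr1 are read from 1 site each.

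The order of the genes differed between libraries. Dusp6 was 31.2, 30.4 and 19.8 times as high as Fos in the FLT3-ITD libraries and 3.29, 4.76 and 5.91 times as high in the double-mutant libraries. The groups did not overlap in this ratio, which does not depend on how libraries are scaled to each other. On the log2(CPM + 1) scale the difference of the ratio was -2.37 (exact permutation p = 0.1, adjusted 0.15 over 3 ratios). Egr1 was above Fos in FLT3-ITD replicates 1 and 2 and below it in the remaining 4 libraries, and the log2 ratio of Egr1 to Fos was 1.03, 0.18 and -2.73 in FLT3-ITD cells and -4.06, -3.24 and -3.28 in the double mutant (adjusted exact permutation p = 0.15). The ranges of Egr1 (0.088 to 8.0 CPM) and Fos (3.41 to 6.23 CPM) in FLT3-ITD cells overlapped, so these neighbours in the order did not differ beyond their spread. In the double mutant Dusp6, Fos and Egr1 stood in that order in every library. The log2 ratio of Dusp6 to Egr1 overlapped between the groups (exact permutation p = 0.6). In the 4 libraries with 0 or 1 Egr1 tag, the pseudocount of 1 sets the Egr1 side of both ratios that include it. The sizes of these ratios and this overlap therefore depend on the pseudocount.

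On the log2(CPM + 1) scale, Dusp6 fell by more, and Fos rose by more, than each of the tested promoters around them. The margins were within the SEs. Dusp6 had -1.25 (SE 0.12), against -1.15 for the largest fall around it. Fos had 1.11 (SE 0.24), against 0.996 for the largest rise around it. This scale understates changes at low promoters. By mean CPM, a promoter around Dusp6 fell from 5.11 to 1.74 CPM, and another around Fos rose from 1.03 to 2.99 CPM. Both are larger relative changes than those of the genes. The 25 tested promoters on each side of the Dusp6 window, from 94.3 to 114.7 Mb, had a median log2 difference of -0.14. Among these 50, 7 were lower and 3 higher, and 0 fell as much as Dusp6 on the log2 scale. The nearest tested promoter on each side was among the 7 lower. The difference was -0.804 before the window (limma adjusted p = 0.0097) and -1.004 after it (adjusted p = 0.0037). The largest of the 3 rises was 2.77. The nearest neighbours of Dusp6 thus fell too, while most of the 50 did not pass. Around Fos, from 85.7 to 88.8 Mb, the median was 0.18, with 0 lower and 4 higher, and 0 of 50 rose as much as Fos. Around Egr1, from 32.7 to 35.7 Mb, the median was 0.03, with 4 lower and 6 higher, and 0 of 50 had a difference as low as that of Egr1. The mean log2 level of the surroundings overlapped between the groups for Dusp6 (3.18, 3.08 and 3.18 in FLT3-ITD libraries, 3.07, 3.11 and 3.01 with D835Y). For Fos it did not overlap (3.19, 3.25 and 3.25, then 3.36, 3.45 and 3.29). With the mean of these promoters subtracted in each library, the difference was -1.17 for Dusp6 (limma adjusted p = 0.00024) and 0.98 for Fos (adjusted p = 0.012). The median over all tested promoters was 0.05.

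**Figure D4:**
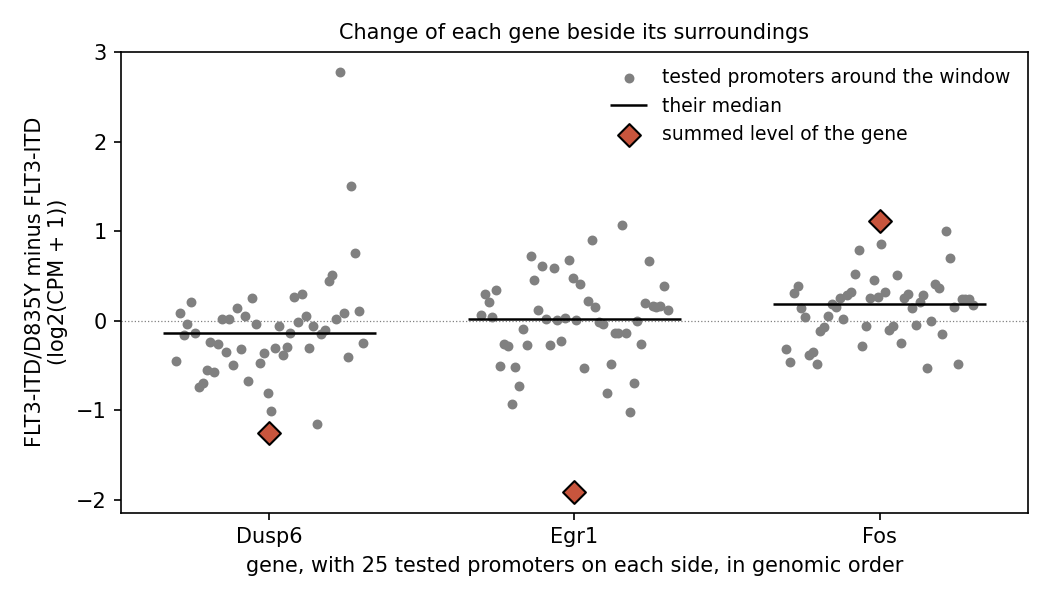
Difference in log2(CPM + 1) with FLT3-ITD subtracted from the double mutant (vertical axis), of the 25 tested promoters on each side of each window in genomic order (grey points, median as a bar) and of the summed level of the gene (diamond). Dusp6 and Egr1 lie below and Fos above all 50 promoters around them.

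For each gene, the promoters whose log2 level was most like its own over the 6 libraries were named, out of 10247 with a mean of at least 5 CPM. For Dusp6 they were chr14:73909821-73909862 on the plus strand, chr6:128384401-128384414 on the minus strand and chr3:146184360-146184394 on the minus strand (Pearson's r 0.998, 0.998 and 0.997). Their log2 differences were -0.41, -1.11 and -0.55, smaller than that of Dusp6. The first had 117.8, 124.2 and 121.4 CPM in FLT3-ITD cells, against 91.6, 88.7 and 92.4 CPM with D835Y. For Fos they were chr12:45370132-45370214, chr11:58120624-58120645 and chr8:75247180-75247192, all on the plus strand (r 0.998, 0.996 and 0.994). Their log2 differences were 0.32, 0.60 and 0.54, and the first had 18.04, 18.9 and 21.5 CPM without D835Y, against 27.6, 23.2 and 23.1 CPM with it. For Egr1 they were chr8:73000810-73000868 on the minus strand and chr18:36446729-36446815 and chr6:125047095-125047127 on the plus strand (r 0.991, 0.989 and 0.984), with log2 differences of -0.27, -0.35 and -0.31. None of these was at 0 in any library: the first had 17.5, 16.7 and 13.2 CPM without D835Y, against 12.9, 13.2 and 12.4 CPM with it. These correlations are descriptions over 6 libraries in 2 groups, picked as the highest of many.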

How the data were processed

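CAGE tags were measured in 3 FLT3-ITD and 3 FLT3-ITD/D835Y libraries of Ba/F3 cells (no-amplification non-tagging protocol, per the labels' protocols). The authors deposited CPM, 1 value per peak, and each table sums to 1000000. The submitters' processing notes name TopHat2 2.0.14, edgeR 3.24.3 and the builds hg19 and mm9, with no role. The making of peaks and the filtering of tags were not given in the sources used here. Dividing by the smallest value above 0 gave whole tags for 100% of values in each library (tolerance 0.01). Libraries of the same group differed in their tags by 4.05 to 19.4 times what sampling gives, so none was a copy. The highest of these values were those of double-mutant replicate 2 against replicates 1 and 3 (18.3 and 19.4). Replicates 1 and 3 differed by 5.70 times. Pairs across the groups had 18.3 to 44.5 times.

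Peaks of a window were summed per gene, and sums replaced their peaks in the table. Features with 1 CPM in at least 3 libraries were tested with limma 3.58.1 (trend, robust) in R 4.3.3 on log2(CPM + 1), a scale that understates the change of low sites, with Benjamini-Hochberg adjustment over all of them and a threshold of 0.05. Single values were compared with exact two-sided permutation tests (scipy 1.17.1). Alternatives used the recovered tags in edgeR 4.0.16, in DESeq2 1.42.0 and in limma-voom. In simulated data of this comparison (18455 features), limma recovered 82% of 100 promoters changed by a fold of 2. Of 100 changed by a fold of 4 it recovered 100%. The simulation gave all promoters the same spread beyond sampling and changed only promoters above the minimum level. Recovery in the real libraries, whose spread is uneven, may therefore differ.

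The genes, windows and lists were chosen with earlier results of these data known. All member sites are described, and the 3 promoters most like each gene are named by correlation. Other genes of the pathway and cell type markers had been listed, but peaks carry no names and no annotation of mm9 was used here, so 0 of them were looked up. Promoter sequences are from RefSeq. Ratios of an Egr1 level of 0 used the pseudocount of 1.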

Additional observations from a re-analysis of the deposited data

How the results depend on the processing

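Under all 22 alternatives for Dusp6 and Fos (scaling, pseudocount, minimum level, test, window, regional level, a library left out), each kept its direction and its call: the log2 difference of Dusp6 ranged from -1.33 to -1.17 and that of Fos from 0.86 to 1.32. Left-out libraries gave -1.33 to -1.18 and 0.86 to 1.32, with the highest adjusted p, 0.037, for Fos without FLT3-ITD replicate 2. The same number of start sites, 3, passed in all 16 alternatives tried for it. For Egr1 left-out libraries moved the difference from -2.81 (without FLT3-ITD replicate 3) to -1.29 (without FLT3-ITD replicate 1), and its size without a test was -2.51 and -3.15 with pseudocounts of 0.5 and 0.25. Tests of Egr1 with no minimum by edgeR and DESeq2 were added after seeing the data: DESeq2 gave -7.22 (adjusted p = 0.0097) and edgeR -6.76 (adjusted p = 0.24); the cause of their different calls was not tested. Without FLT3-ITD replicate 3 and with no minimum, limma gave -2.81 (adjusted p = 9.1e-26), a library left out because of its Egr1 level, so that this value supports nothing. With the window widened by 5 kb, the Egr1 sum passed the minimum and its difference was -1.65 (limma adjusted p = 0.12). This sum took in weak upstream peaks, at 0.44 and 0.53 CPM in FLT3-ITD replicate 3. In the double mutant they made up most of it, so the value does not test Egr1 alone. Without FLT3-ITD replicate 1 the difference in the log2 ratio of Dusp6 to Egr1 was -0.04 in place of 0.65.

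With the replicate number as a block (replicate block), the differences were -1.25 for Dusp6 (adjusted p = 6.1e-05) and 1.11 for Fos (adjusted p = 0.014), and 3 start sites passed. Same-numbered libraries deviated together by -0.01, 0.02 and 0.19 (correlation), so the numbers were not taken to pair them. Depth limits how precisely the level of Egr1 is known in the 4 libraries with 0 or 1 tag, and that of the weaker Fos sites. Each of these 4 libraries had more tags in total than FLT3-ITD replicate 2 (5884258), in which Egr1 had 28.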

Other observations

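The on and off pattern of the leading Egr1 site within the FLT3-ITD group was shared by other peaks. With at least 1 CPM in FLT3-ITD replicates 1 and 2 and at most 1 tag in each of the other 4 libraries, 13 of all 158966 peaks met this description, which was set after the Egr1 values were seen. They lay on 10 chromosomes, and the Egr1 site was the only one on chromosome 18. By mean level in replicates 1 and 2 the Egr1 site came second. The first, chr16:92697560-92697592 on the minus strand, had 12.4 and 3.40 CPM in these replicates and 0 tags in the rest. The minus-strand peak chr2:44968512-44968530 had 5.17 and 6.46 CPM, chr10:36858669-36858743 on the minus strand 7.41 and 3.06 CPM, and chrX:11657671-11657687 on the minus strand 6.34 and 2.89 CPM, each with 0 tags in the other 4 libraries. At 7 of all peaks, FLT3-ITD replicate 3 was below both other FLT3-ITD libraries by at least 2 on the log2(CPM + 1) scale. For the other libraries within their groups this number was 2 to 27, highest for FLT3-ITD replicate 1. What lies behind this pattern was not tested.

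Just upstream of the Egr1 window, where the widened window reaches, a weak plus-strand peak at chr18:35016185-35016199 had 0.88, 0.85 and 0.53 CPM in FLT3-ITD cells, against 0.50, 0.21 and 0.49 CPM with D835Y. It was present in all 6 libraries, FLT3-ITD replicate 3 included.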
